A study of Gallus gallus with 12 samples.

Results

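The genes described here are 68 chick genes, most of them of DNA replication and the cell cycle, measured along the midbrain and the front of the hindbrain. The cyclins are among them. They were chosen by a rule on gene symbols, which also takes in CDC and CDK genes of other functions, such as CDC42 and CDK9. Every probe set of the Affymetrix Chicken GeneChip that the platform annotation gave a single symbol was taken if that symbol was PCNA, an MCM, ORC, GINS, RFC or RPA gene, a DNA polymerase alpha, delta or epsilon gene, a primase gene, a cyclin A, B, D or E, a cyclin-dependent kinase numbered from CDK1 to CDK9, or a CDC gene. This gave 127 probe sets for 68 of the 13009 genes with a symbol of their own, and each gene was followed through the probe set with its highest mean signal. The low-signal filter described below kept 66 of the 68 genes, and CDC20B and CDK3 did not pass it. MCM4, MCM7, CDC6, CDK2, CDK4 and CCNB2 were not named in the annotation used here and were not analysed.

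Tissue came from Gallus gallus embryos at stage HH10 by the sample labels, with no genetic change or drug treatment in any group. The methods text gives a later stage. Neural tubes were freed of ectoderm and mesoderm with Dispase and cut by hand into midbrain (m) and rhombomeres r1, r2, r3, r4 and r5, the segments of the hindbrain. Each of the 6 regions was represented by 2 arrays, set 1 and set 2, each made from its own pool of tissue gathered at another time, so that 12 arrays were compared. Each array carried RNA from many embryos, and the spread between the pools of a region was the only replicate error. In such bulk samples, fewer cells of a type and less RNA per cell cannot be told apart.

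A cell copies its DNA once per cycle. The origin recognition complex marks the start sites, where the MCM2 to MCM7 ring is loaded as an inactive helicase, and CDC45 and the GINS complex join the ring to make it unwind DNA. DNA polymerase alpha and primase then lay the primers, polymerases delta and epsilon extend them, and the sliding clamp PCNA, loaded by the RFC complex, holds the polymerases on the template while RPA covers single-stranded DNA. D-type cyclins carry growth signals into G1, cyclin E and cyclin A act at the start of and through S phase, and B-type cyclins with CDK1 drive mitosis. At this age the hindbrain wall is made mostly of dividing neuroepithelial cells, and the earliest neurons are appearing.

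All values below are scaled signals: the deposited MAS5 intensity of a probe set divided by the median of its array and multiplied by the mean of the array medians, 5.90, so that a value of about 6 lies in the middle of an array. Scaled signals below 1.03, the 20th percentile of all scaled signals, were set to that floor in the tests and are printed here as measured. A probe set was tested if it lay above the array median on both arrays of at least 1 region, which 21731 of 38439 did. Differences are log2 fold changes between region means from limma, with Benjamini-Hochberg adjusted p-values over all probe sets tested, and a difference was called when the adjusted p was below 0.05.

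The r3 arrays stood apart from the others before any gene of interest was considered. The chip carries probe sets for the 3′ and the 5′ part of 3 control transcripts, actin, GAPDH and EF1a, and a high 3′ over 5′ ratio means that the 5′ part gave little signal. The mean log2 of this ratio was 7.12 and 6.12 on the r3 arrays, 4.05 and 3.56 on r4, 3.36 and 2.08 on r5, and between 1.28 and 2.07 on the 6 arrays of m, r1 and r2. The median deposited intensity was 2.27 and 4.35 on the r3 arrays and between 4.19 and 9.67 on the others. Region and ratio therefore moved together, both for r3 and for r4 and r5, and the counts below are given with and without the r3 arrays. For single genes the front to back p-values come from the fit without r3, and the p-value with r3 in the fit is added where that fit did not make the call. Of the regional markers, the summed signal of the 4 annotated midbrain markers, with OTX2 and EN1 among them, was 2423 and 2393 in m, 1375 and 1513 in r1 and at most 213 elsewhere. HOXA2, which is expressed from r2 backwards, lay below 1 on all m and r1 arrays and between 24.6 and 152 on the other 8. HOXB1 was highest in r4, at 225 and 367, and HOXA3 in r5, at 512 and 503. GBX2, a gene of the front hindbrain, was highest in r3, at 2099 and 2001, next in r4, at 1543 and 1573, and measured 1175 and 1350 in r1. A marker particular to r3 was not analysed here.

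The F test over the 6 regions called 37 of the 66 replication and cyclin genes, against 34.9% of all probe sets. Without the r3 arrays it called 13 of 65, against 20.2% of all; CCNA1 no longer passed the filter there. The 13 were POLD3, ORC1, MCM3, PCNA, POLE3, CCND3, CDC42, CCND2, CCND1, CDC20, MCM10, CDK1 and CDC37, and 12 of them were also among the 37. When the 3′ over 5′ ratio of each array entered the fit as a covariate, 1 of 66 genes was called over all regions, and 0 of 65 without r3, against 1.98% and 5.04% of all probe sets.

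Most of the difference lay in r3. Against the mean of the other 5 regions, 44 of the 66 genes were lower in r3 and 0 were higher, where 39.7% of all probe sets were lower and 7.12% higher. The median log2 fold change of the 66 genes was -1.10, and that of all probe sets tested was -0.63. Both r3 arrays lay below all 10 other arrays for 41 of the 66 genes, against 29.5% of all probe sets. Among probe sets with a mean scaled signal above 100, a level chosen after the values had been seen, 33 of 43 members and 58.2% of all such probe sets were lower in r3, with medians of -1.12 and -0.67. The r3 arrays carried the high control ratios given above, and with the ratio as a covariate 0 of the 66 genes and 0% of all probe sets were called in r3. That fit cannot tell r3 and the ratio apart.

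The size of the r3 difference also depended on how the arrays were scaled. The median log2 fold change of all probe sets in r3 was -0.63 after median scaling, -0.12 after quantile normalisation, -1.52 with no scaling and 0.14 after scaling to the 75th percentile. The members' median stood below that of all probe sets by 0.47, 0.32, 0.54 and 0.45 in the same order. Quantile normalisation called 34 members lower and 8 higher in r3, and the 75th percentile 24 lower and 14 higher. The shares of all probe sets called under these scalings, or under all 4, are not given here. These counts therefore do not set the members apart from all probe sets. Of the 44 genes called lower after median scaling, 33 were called lower after quantile normalisation, 44 with no scaling and 24 at the 75th percentile. No scaling lowered the median of all probe sets in r3 to -1.52, so it was no strict check on these calls. The 24 genes kept at the 75th percentile were also those called lower under all 4 scalings. These were PCNA, MCM3, MCM5, MCM6, GINS3, ORC1, ORC4, POLD2, POLD3, POLE2, POLE3, RFC2, RFC3, RFC5, RPA3, CCNA2, CCNB3, CCND2, CCND3, CCNE1, CDC7, CDC25A, CDK9 and CDC42. MCM2, ORC3, GINS1, CDC45, POLE, RFC4, RPA1, RPA2 and CCNE2 were among the genes whose call was not kept under all 4. CDC123, CDC23 and CDC34 changed sign under quantile normalisation and at the 75th percentile, CDC20 at the 75th percentile and POLE4 under quantile normalisation.

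**Figure D1:**
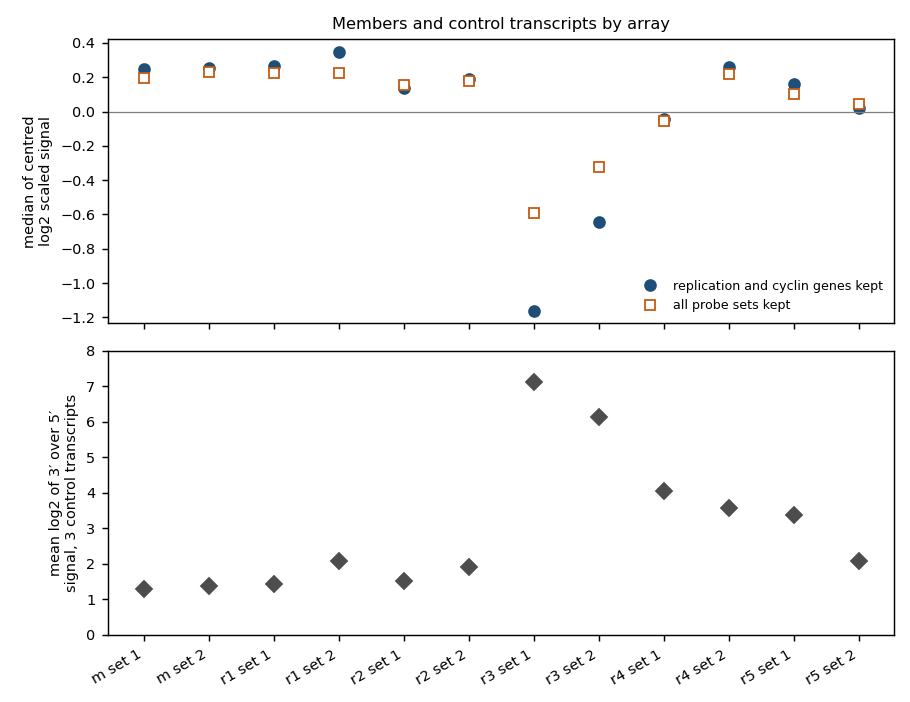
Top, for each of the 12 arrays (x axis, region and set), the median over genes of the log2 scaled signal centred on each gene's mean over the 12 arrays, for the 66 replication and cyclin genes (filled circles) and all 21731 probe sets kept (open squares); bottom, the mean log2 of the 3′ over 5′ signal ratio of 3 control transcripts. The members stood at -1.16 and -0.65 on the r3 arrays, where all probe sets stood at -0.59 and -0.32 and the control ratio was highest.

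The front to back contrast left r3 out and set the front of the tissue, m, r1 and r2, against r4 and r5. In the fit of all 12 arrays, 9 of the 66 genes were higher in front and 3 were lower, where 7.9% and 4.39% of all probe sets were. The 9 were POLD3, MCM3, POLE3, PCNA, CCND2, MCM10, CCND3, CDC42 and ORC1, and the 3 were CCND1, CDK1 and CDC20. Without the r3 arrays in the fit, 21 genes were higher and 5 lower of 65, against 19.9% and 9.59% of all probe sets. All 9 and all 3 genes of the fit of 12 arrays were among them. With 1 array left out, the count of 12 ran from 3, without set 1 of r1 or set 1 of r2, to 25, without set 1 of r3, and it was also below 8 without either array of m or of r5, set 2 of r2 or set 1 of r4. In the fit without r3, leaving out set 2 of r5 lowered the count of 26 to 14. No share of all probe sets stands beside these counts with 1 array left out, so they are not a result about the members. The members' median log2 fold change was 0.16 and that of all probe sets 0.14. All 6 front arrays lay above all 4 arrays of r4 and r5 for 9 of the 66 genes (9.78% of all probe sets), and below them for 4 (5.54%).

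The front to back contrast was open to the same control ratio and to scaling. With the ratio as a covariate, 0 members were called in either direction, with the r3 arrays or without them, against 0.193% and 0.766% of all probe sets. The mean log2 ratio was 1.28 to 2.07 on the front arrays and 2.08 to 4.05 on those of r4 and r5. These ranges nearly meet, at 2.07 and 2.08, but all front arrays lay below all arrays of r4 and r5. The covariate fit therefore separates front to back from the ratio poorly, and the loss of calls decides nothing. Without r3, the median of all probe sets was 0.14 after median scaling, 0.02 after quantile normalisation, 0.86 with no scaling and -0.10 at the 75th percentile. The split of called members was 21 higher and 5 lower, 20 and 8, 54 and 0, and 9 and 16 in that order. For scalings other than to the median, the shares of all probe sets called are not given here. Those splits therefore do not set the members apart from all probe sets. CCND2, CCND3, CDC42, MCM3, MCM10, ORC1, PCNA, POLD3 and POLE3 were called higher in front under all 4 scalings. They were the 9 of the 21 genes kept at the 75th percentile, where quantile normalisation kept 15 and no scaling 21. CCND1, CDK1, CDC20, CCNB1 and CDC5L were called lower in front by median scaling and at the 75th percentile, and turned positive with no scaling. From median scaling to no scaling, the median of all probe sets moved from 0.14 to 0.86. The turn is therefore not particular to these genes. CCNB1 also turned positive, to 0.011, under quantile normalisation.

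Within the 66 genes the roles differed in how many members were called. The origin recognition complex gave 3 of 6 genes lower in r3, the helicase group 8 of 10, primase and the polymerases 8 of 10, the clamp, its loader and RPA 8 of 9, the cyclins 6 of 9, the cyclin-dependent kinases 1 of 6, the regulators around CDC7, CDC25A and the anaphase-promoting complex 6 of 10, and the CDC genes with other functions 4 of 6, where 39.7% of all probe sets were lower. In the front to back contrast without r3, the cyclins had 5 higher and 2 lower of 8, and primase and the polymerases 5 higher and 0 lower of 10, against 19.9% higher and 9.59% lower of all probe sets. Each member was followed through its probe set of highest signal, and of all probe sets with a mean scaled signal above 100, 58.2% were lower in r3. The roles were not split by signal, and the difference between the roles was not tested.

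ORC1, the largest subunit of the origin recognition complex, measured 175 and 210.1 in m, 181 and 202 in r1, 118 and 144 in r2, 22.3 and 28.8 in r3, 99.98 and 142 in r4, and 113 and 99.2 in r5. The r3 arrays were the lowest and did not overlap with any other, while one r4 array reached the level of r2. ORC1 was lower in r3 with a log2 fold change of -2.50 ± 0.19 (SE, adjusted p = 4.0e-06) and higher in front with a log2 fold change of 0.58 ± 0.13 (SE, adjusted p = 0.0047), the latter without r3. ORC4, another subunit, measured 194 and 250.4 in m, 208 and 217 in r1, 203 and 191 in r2, 62.5 and 85.3 in r3, 155 and 209 in r4, and 174 and 148 in r5. It was lower in r3 with a log2 fold change of -1.40 ± 0.18 (SE, adjusted p = 9.3e-05) and its front to back difference, 0.30 ± 0.12 (SE, adjusted p = 0.078), was not called. ORC3 measured 353 and 333 in m, 303 and 341 in r1, 300.2 and 344 in r2, 143 and 196 in r3, 359 and 432 in r4, and 345 and 307 in r5, again with both r3 arrays below the rest, at -1.02 ± 0.16 (SE, adjusted p = 3.0e-04). ORC2, ORC5 and ORC6 were not called in r3, with log2 fold changes of -0.23, -0.51 and -0.09. In ORC2 the r3 arrays were the highest and the lowest of all 12, at 263 and 116.

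Of the MCM2 to MCM7 ring, MCM2, MCM3, MCM5 and MCM6 could be followed. MCM3 measured 284 and 310.4 in m, 314 and 274 in r1, 267 and 250.0 in r2, 41.1 and 48.0 in r3, 119 and 146 in r4, and 115 and 195 in r5. Its arrays fell into 3 levels that did not overlap: m, r1 and r2 highest, r4 and r5 next and r3 lowest. The difference was -2.27 ± 0.20 (SE, adjusted p = 7.3e-06) in r3 and 1.00 ± 0.14 (SE, adjusted p = 1.9e-04) between front and back without r3. MCM5 measured 455 and 423 in m, 378 and 469 in r1, 444 and 465 in r2, 56.4 and 83.0 in r3, 309 and 419 in r4, and 441 and 375 in r5. Here r4 and r5 overlapped with the front, and r3 alone was low, at -2.60 ± 0.18 (SE, adjusted p = 2.5e-06). MCM2 measured 1262 and 1264 in m, 1260.5 and 1382 in r1, 1066 and 1147 in r2, 449.9 and 687 in r3, 1031 and 1113 in r4, and 1440.1 and 1041 in r5, with -1.10 ± 0.17 (SE, adjusted p = 2.7e-04) in r3. MCM6 measured 275 and 289 in m, 341 and 299.9 in r1, 259 and 301 in r2, 46.2 and 159 in r3, 218 and 271 in r4, and 295 and 236 in r5, and its r3 arrays differed by more than those of any other region, at -1.69 ± 0.32 (SE, adjusted p = 0.0011). The front to back differences of MCM2, MCM5 and MCM6 were 0.10, 0.19 and 0.21, with limma adjusted p of 0.49, 0.22 and 0.18. After median scaling the 4 ring genes therefore shared the low r3 signal in the probe sets followed, and MCM3 was the one called between front and back. MCM2, unlike the other ring genes, was not called lower in r3 under all 4 scalings. A second probe set of MCM6, of lower signal, was at 0.13 in r3.

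Around the ring, MCM10, which helps to switch the helicase on, gave a weak signal and is given here because its front to back difference was large, so it was chosen after its values had been seen. It measured 26.5 and 31.1 in m, 29.6 and 25.7 in r1, 25.3 and 26.0 in r2, 10.1 and 3.87 in r3, 7.00 and 11.4 in r4, and 12.2 and 14.1 in r5. All 6 front arrays lay above all arrays of r3, r4 and r5, with 1.33 ± 0.22 (SE, adjusted p = 6.5e-04) between front and back without r3. GINS1 and GINS3, subunits of the complex that activates the helicase, were lower in r3 by their probe sets of highest signal. GINS1 measured 431 and 446 in m, 438 and 487 in r1, 312 and 381 in r2, 197 and 222 in r3, 439 and 468 in r4, and 531 and 399 in r5, at -1.04 ± 0.15 (SE, adjusted p = 1.9e-04), while its other 2 probe sets, of lower signal, gave -0.69 and 1.03 and were not called, and GINS3 measured 621 and 675 in m, 639 and 662 in r1, 576 and 559 in r2, 204 and 326 in r3, 451 and 657 in r4, and 613 and 611 in r5, at -1.23 ± 0.18 (SE, adjusted p = 2.2e-04). CDC45, their partner, was lower in r3 with a log2 fold change of -0.87 ± 0.19 (SE, adjusted p = 0.0032). MCM8 and MCM9, relatives that act in repair of DNA by recombination, were not called in r3, at -0.21 and -0.51, nor between front and back.

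POLD3, an accessory subunit of DNA polymerase delta, had the smallest F test p of the 66 genes. Its signal measured 102 and 94.7 in m, 99.1 and 78.9 in r1, 82.2 and 89.9 in r2, 0.375 and 1.59 in r3, 40.0 and 44.2 in r4, and 40.6 and 50.2 in r5. The r3 arrays lay near the floor, the first of them below it, and r4 and r5 lay at roughly the middle of the range between r3 and the front on the linear scale, with no overlap between the 3 levels. The log2 fold change in r3, -5.73, depends on the floor and became -1.76 with a floor at 20, and was called under both. Between front and back it was 1.06 ± 0.14 (SE, adjusted p = 1.1e-04) without r3. POLD3 had 5 probe sets above the filter, whose r3 values ran from -5.73 to 2.02 and whose front to back values ran from -0.39 to 1.06, and 1 of the 5 was called between front and back and 2 were called lower in r3 in the fit of 12 arrays.

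POLE3, a histone-fold subunit of polymerase epsilon, measured 216 and 235 in m, 225 and 215 in r1, 236 and 188 in r2, 32.6 and 54.1 in r3, 109.7 and 126 in r4, and 155 and 126 in r5. The front arrays were higher than those of r4 and r5, and r3 was lowest, at -2.07 ± 0.20 (SE, adjusted p = 1.4e-05) in r3 and 0.77 ± 0.12 (SE, adjusted p = 3.2e-04) between front and back without r3. POLD2, another subunit of polymerase delta, measured 233 and 222 in m, 241 and 253 in r1, 229.8 and 212 in r2, 86.9 and 73.8 in r3, 126 and 178 in r4, and 229.9 and 186 in r5, at -1.37 ± 0.17 (SE, adjusted p = 6.7e-05) in r3. It overlapped between front and back, since r5 set 1 was as high as r2, and its difference without r3 was 0.40 ± 0.12 (SE, adjusted p = 0.023, and 0.089 with r3 in the fit). POLE2, of polymerase epsilon, measured 568 and 569.8 in m, 576 and 606 in r1, 546 and 579 in r2, 199.9 and 285 in r3, 419.6 and 622 in r4, and 521 and 528 in r5, with -1.21 ± 0.17 (SE, adjusted p = 1.6e-04) in r3 and no call between front and back. POLE, the catalytic subunit, was lower in r3 with a log2 fold change of -1.23 ± 0.24 (SE, adjusted p = 0.0015) and higher in front with a log2 fold change of 0.47 ± 0.15 (SE, adjusted p = 0.034, and 0.15 with r3 in the fit) without r3. POLA1, the catalytic subunit of polymerase alpha, was higher in front with a log2 fold change of 0.86 ± 0.26 (SE, adjusted p = 0.023, and 0.093 with r3 in the fit) without r3 and was not called in r3, at 0.34, where its other probe set, of lower signal, was lower at -1.96. PRIM1, the catalytic primase subunit, was lower in r3 with a log2 fold change of -2.23 ± 0.66 (SE, adjusted p = 0.016), but 1 of its r3 arrays was below the floor, its signal never exceeded 21.4, and with a floor at 20 its value was -0.02 and not called. PRIM2, its partner, was at 0.17 in r3 and not called.

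PCNA, the sliding clamp and a common marker of cycling cells, measured 830.4 and 1146 in m, 864 and 843 in r1, 740.3 and 645 in r2, 22.5 and 67.7 in r3, 218 and 481 in r4, and 408 and 478 in r5. The front arrays were the highest, r4 and r5 lay below all of them, and r3 was lowest, with no overlap between the 3 levels. Its log2 fold change was -3.96 ± 0.34 (SE, adjusted p = 7.6e-06) in r3 and 1.14 ± 0.18 (SE, adjusted p = 3.7e-04) between front and back without r3; in the fit of all 12 arrays the adjusted p of the latter was 0.025. PCNA had 1 annotated probe set. RFC5, a subunit of the clamp loader, measured 356 and 370.1 in m, 346 and 343 in r1, 306 and 309.9 in r2, 106 and 143 in r3, 212 and 325 in r4, and 281 and 263 in r5, at -1.32 ± 0.18 (SE, adjusted p = 1.0e-04) in r3 and 0.34 ± 0.12 (SE, adjusted p = 0.043, and 0.15 with r3 in the fit) between front and back without r3. RFC4, another loader subunit, measured 844 and 962 in m, 835 and 969 in r1, 764 and 829 in r2, 372 and 427 in r3, 771 and 1017 in r4, and 944 and 759 in r5, with -1.12 ± 0.15 (SE, adjusted p = 1.2e-04) in r3. Its front to back difference was not called, at -0.0029 ± 0.11 (SE). RFC2 measured 489 and 529.7 in m, 509 and 555 in r1, 468 and 487 in r2, 113 and 239 in r3, 418 and 566 in r4, and 555 and 412 in r5, at -1.59 ± 0.23 (SE, adjusted p = 2.0e-04). The other probe set of RFC2, of lower signal, was at 0.32 in r3. RFC1, the large subunit of the loader, was not called in r3, at -0.24. RPA3, the smallest subunit of the single-strand binding complex, measured 256 and 261 in m, 275 and 301 in r1, 262 and 268 in r2, 95.3 and 146 in r3, 261 and 327 in r4, and 229.7 and 248 in r5, at -1.18 ± 0.17 (SE, adjusted p = 2.0e-04), and RPA1 and RPA2 were lower in r3 with log2 fold changes of -1.13 and -1.21.

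**Figure D2:**
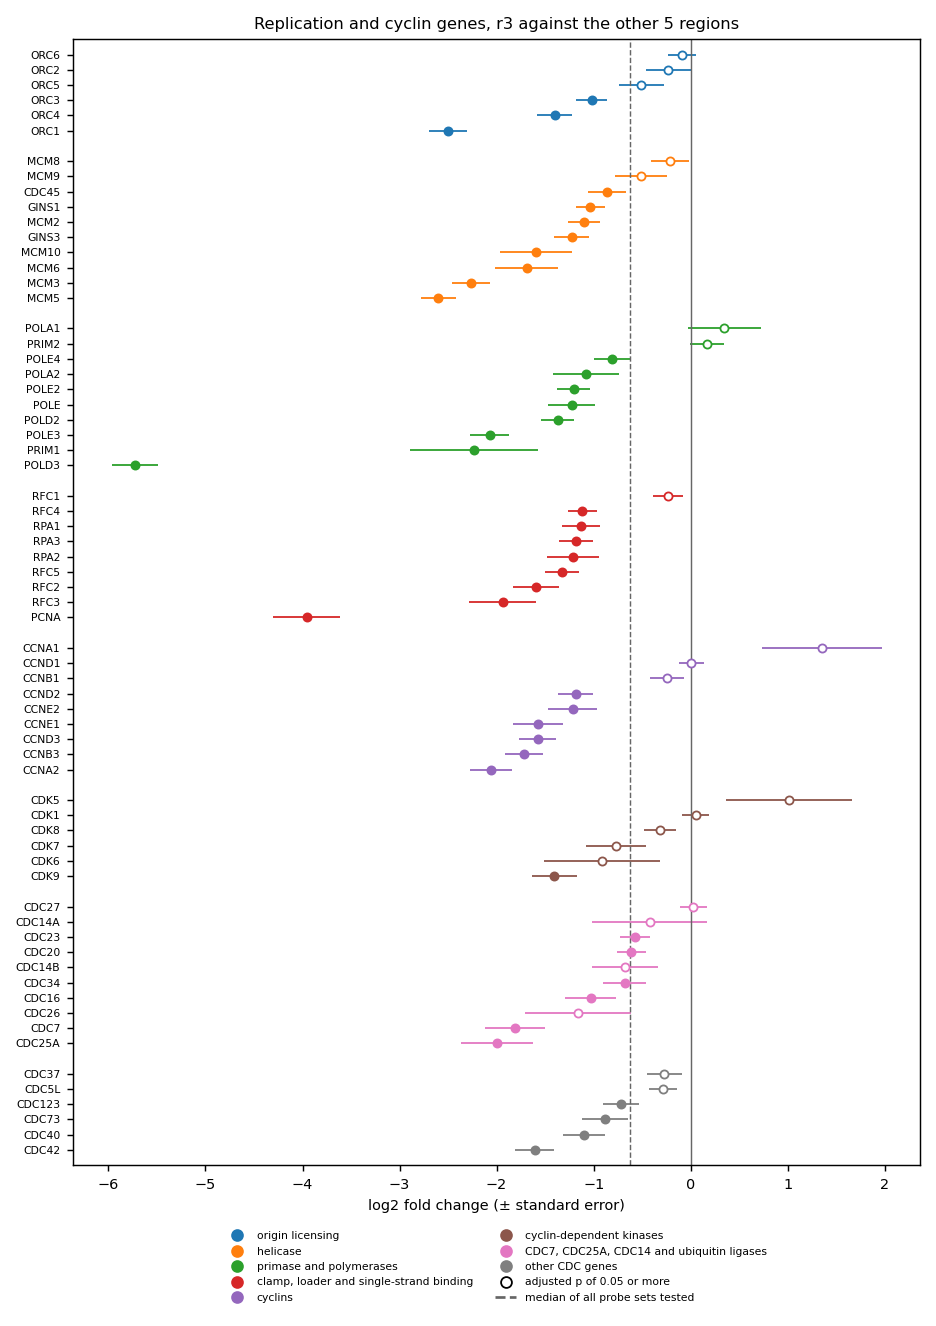
Log2 fold change in r3 against the mean of the other 5 regions (x axis, bars show the standard error) for the 66 genes tested, in 8 role groups; filled points have an adjusted p below 0.05 and the dashed line marks the median of all probe sets, -0.63. The 44 called genes all lie below 0, from -0.58 to -5.73.

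The D-type cyclins did not share 1 pattern in their probe sets of highest signal. CCND2 measured 790.1 and 760.1 in m, 628 and 572 in r1, 547 and 504 in r2, 183 and 282 in r3, 313 and 399 in r4, and 372 and 489 in r5. It was highest in m, and r4 and r5 lay below all front arrays, with 0.69 ± 0.11 (SE, adjusted p = 4.3e-04) between front and back without r3 and 0.94 ± 0.18 (SE, adjusted p = 0.0094) in m against the other 5. CCND3 measured 113 and 126 in m, 137 and 134 in r1, 105 and 93.2 in r2, 39.9 and 26.9 in r3, 65.9 and 80.7 in r4, and 76.9 and 77.9 in r5. It was highest in r1 and likewise higher in front, with a log2 fold change of 0.64 ± 0.12 (SE, adjusted p = 0.0014) without r3. CCND1 ran the other way in its probe set of highest signal, which measured 861 and 1018 in m, 1035 and 1111 in r1, 837 and 962 in r2, 1125 and 1165 in r3, 1742 and 1743 in r4, and 1167 and 1285 in r5. Both r4 arrays were the highest of all and did not overlap with any other region. CCND1 was higher in r4 than in the other 5 regions with a log2 fold change of 0.73 ± 0.13 (SE, adjusted p = 0.016). It was the only member called in r4 in the fit of 12 arrays. Without r3, CCND1 was lower in front with a log2 fold change of -0.60 ± 0.09 (SE, adjusted p = 3.0e-04). With no scaling the call in r4 was lost and the front to back value turned positive. The front to back median of all probe sets moved up too in that setting. In r3, where CCND2 and CCND3 were lower with log2 fold changes of -1.18 and -1.58, CCND1 was at 0.01. This contrast depends on the probe set followed. The other probe set of CCND1 was at -1.46 in r3 and -0.08 between front and back. Those of CCND2 ran from -1.57 to 0.08 in r3.

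The other cyclins were called in r3 except CCNA1 and CCNB1. CCNA2, the S phase and G2 cyclin, measured 370.1 and 446 in m, 367 and 424 in r1, 337 and 349.7 in r2, 61.6 and 102 in r3, 208 and 347 in r4, and 290.3 and 240.0 in r5, at -2.06 ± 0.22 (SE, adjusted p = 2.5e-05) in r3. CCNE1, which acts with CDK2 at entry to S phase, measured 87.4 and 80.1 in m, 66.2 and 58.8 in r1, 58.7 and 55.8 in r2, 18.1 and 19.0 in r3, 34.6 and 35.1 in r4, and 73.2 and 33.9 in r5, at -1.57 ± 0.26 (SE, adjusted p = 4.3e-04). CCNE2 measured 252 and 243 in m, 254 and 255 in r1, 221 and 252 in r2, 66.5 and 161 in r3, 199 and 249 in r4, and 261 and 223 in r5, at -1.22 ± 0.25 (SE, adjusted p = 0.0019). The other probe set of CCNE2, of lower signal, was at 0.75 in r3. The front to back differences without r3 were 0.51 ± 0.14 (SE, adjusted p = 0.012, and 0.087 with r3 in the fit) for CCNA2, 0.68 ± 0.19 (SE, adjusted p = 0.015, and 0.059 with r3 in the fit) for CCNE1 and 0.08 ± 0.11 (SE, adjusted p = 0.59) for CCNE2. CCNE1 in r5 set 1 lay above both r1 and both r2 arrays, while the other back arrays lay below all front arrays. CCNB3, a B-type cyclin, measured 353 and 343 in m, 251 and 271 in r1, 215 and 228 in r2, 75.7 and 70.6 in r3, 166 and 246 in r4, and 253 and 156 in r5, highest on both m arrays, at 0.98 ± 0.20 (SE, adjusted p = 0.012) in m and -1.72 ± 0.20 (SE, adjusted p = 4.0e-05) in r3. CCNB1, the main mitotic cyclin, measured 1489 and 1534 in m, 1510.3 and 1702 in r1, 1227 and 1447 in r2, 1019.9 and 1777 in r3, 1733 and 1959 in r4, and 1753 and 1751 in r5. All front arrays lay below all arrays of r4 and r5 after median scaling, the difference was -0.28 ± 0.09 (SE, adjusted p = 0.026, and 0.23 with r3 in the fit) without r3 but turned positive with no scaling and under quantile normalisation, and in r3 it was -0.25 and not called. CCNA1, a cyclin of the germ line in mammals, measured 5.13 and 4.47 in m, 4.73 and 5.61 in r1, 9.39 and 1.40 in r2, 11.9 and 8.73 in r3, 3.56 and 3.12 in r4, and 3.02 and 3.86 in r5 and was called nowhere.

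CDK1 and CDC20 act in mitosis together with CCNB1, CDK1 as its kinase and CDC20 as the activator of the anaphase-promoting complex. Both were chosen after their values had been seen, as they were the genes lower in front beside CCND1. CDK1 measured 1005 and 1168 in m, 1137 and 1423 in r1, 1070.0 and 1157 in r2, 1218 and 1545 in r3, 1788 and 1807 in r4, and 1539 and 1413 in r5. The r4 arrays were highest, and r1 set 2 reached the lower array of r5. The front to back difference was -0.50 ± 0.09 (SE, adjusted p = 0.0014) without r3, and in r3 CDK1 was at 0.05. CDC20 measured 1032 and 1150.2 in m, 971 and 1274 in r1, 881 and 1076 in r2, 745 and 882 in r3, 1588 and 1724 in r4, and 1659 and 1343 in r5. All front arrays lay below those of r4 and r5, with a log2 fold change of -0.57 ± 0.11 (SE, adjusted p = 0.0014) without r3, and the values of both CDK1 and CDC20 turned positive with no scaling. CDC20 was also lower in r3 with a log2 fold change of -0.61 ± 0.15 (SE, adjusted p = 0.0059), except that it turned to 0.17 at the 75th percentile. CDC27, CDC16, CDC23 and CDC26, subunits of the anaphase-promoting complex itself, were not called between front and back.

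**Figure D3:**
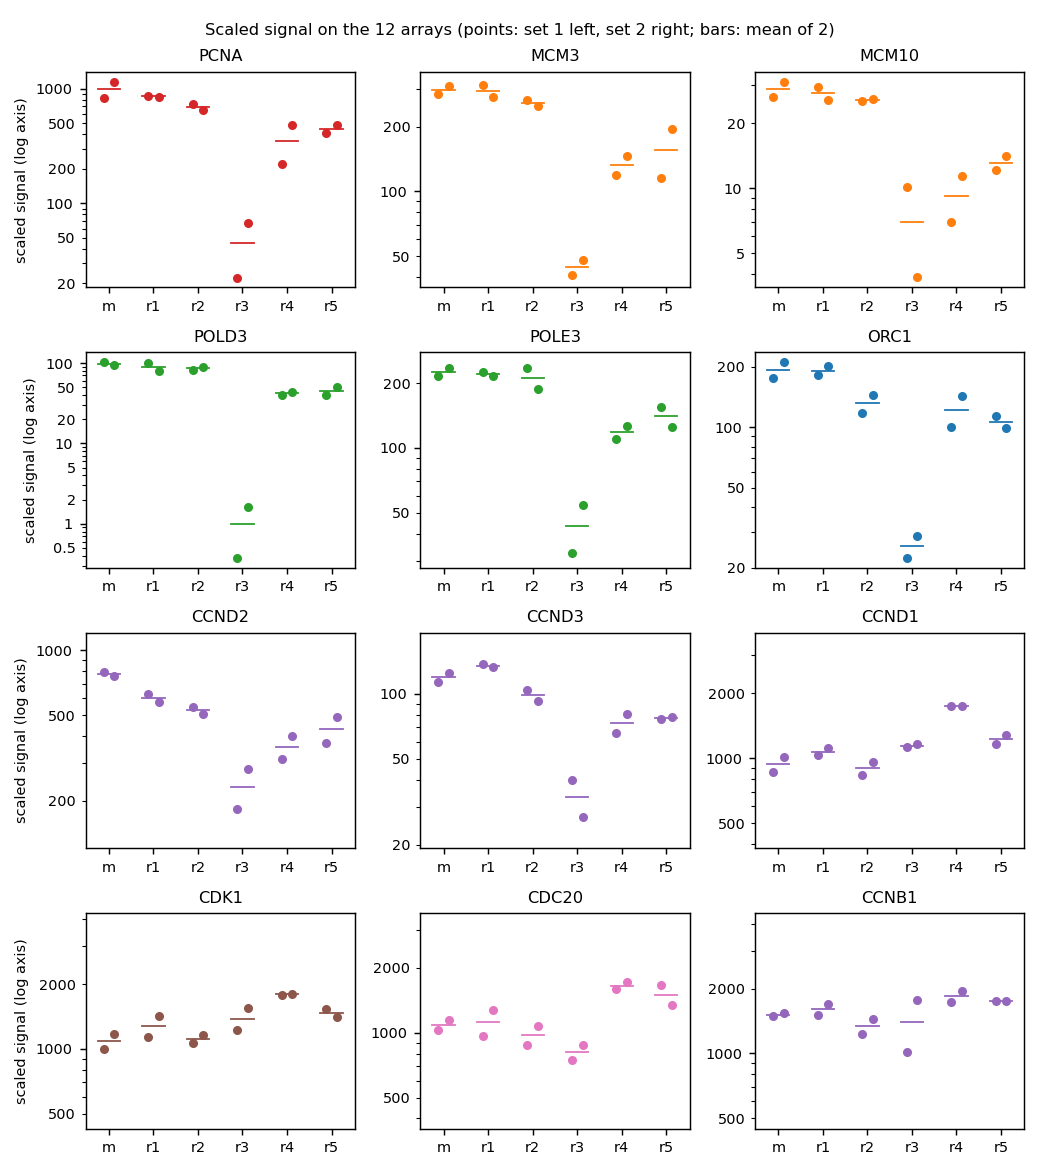
Scaled signal (log y axis) of 12 genes on the 12 arrays, with region on the x axis, set 1 left and set 2 right and a bar at the mean of the 2 arrays. PCNA, MCM3, MCM10, POLD3, POLE3, ORC1, CCND2 and CCND3 were higher in front, and CCND1, CDK1, CDC20 and CCNB1 higher in r4 and r5, except that the latter 4 turned with no scaling and CCNB1 also under quantile normalisation. No scaling moved the front to back median of all probe sets up too.

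Among the remaining regulators, CDC7, the kinase that fires origins, measured 85.3 and 69.9 in m, 79.3 and 105 in r1, 81.6 and 61.6 in r2, 13.3 and 27.1 in r3, 34.7 and 49.4 in r4, and 87.2 and 46.1 in r5. It was lower in r3 with a log2 fold change of -1.81 ± 0.31 (SE, adjusted p = 5.6e-04) and higher in front with a log2 fold change of 0.63 ± 0.19 (SE, adjusted p = 0.025, and 0.13 with r3 in the fit) without r3, although r5 set 1 was as high as m. A second probe set of CDC7, with signals of at most 19.1, was higher in r3 at 1.64. CDC25A, the phosphatase that activates CDK2, was lower in r3 with a log2 fold change of -2.00 ± 0.37 (SE, adjusted p = 1.0e-03) and higher in front with a log2 fold change of 0.86 ± 0.26 (SE, adjusted p = 0.024, and 0.091 with r3 in the fit) without r3. CDK9, a kinase of transcription elongation and not of the cycle, measured 261 and 267 in m, 248 and 233 in r1, 228 and 211 in r2, 58.3 and 109.7 in r3, 123 and 203 in r4, and 193 and 195 in r5, at -1.40 ± 0.23 (SE, adjusted p = 4.1e-04) in r3 and 0.46 ± 0.13 (SE, adjusted p = 0.017, and 0.14 with r3 in the fit) between front and back without r3. By their probe sets of highest signal, CDK5, CDK6, CDK7 and CDK8 were called in neither contrast, and the signals of CDK5 and CDK6 stayed at or below 23.6. CDC42, a small GTPase of cell polarity that shares the CDC name, measured 619.8 and 600.2 in m, 616 and 581 in r1, 542 and 490.0 in r2, 124 and 207 in r3, 311 and 450.2 in r4, and 352 and 446 in r5. It showed the same order of regions as PCNA, with -1.61 ± 0.20 (SE, adjusted p = 6.4e-05) in r3 and 0.57 ± 0.12 (SE, adjusted p = 0.0023) between front and back. CDC37, a partner of the chaperone HSP90, was lower in r5 with a log2 fold change of -0.66 ± 0.12 (SE, adjusted p = 0.0031, and 0.19 with r3 in the fit) without r3. Its front to back difference without r3 was 0.35 ± 0.10 (SE, adjusted p = 0.014, and 0.15 with r3 in the fit). CDC5L, a splicing factor, was lower in front with a log2 fold change of -0.28 ± 0.09 (SE, adjusted p = 0.03, and 0.14 with r3 in the fit) without r3, which turned positive with no scaling. Another of its 4 probe sets, with signals of at most 44.6, was higher in front at 1.62 in both fits. CDC40, CDC73 and CDC123 were lower in r3 with log2 fold changes of -1.10, -0.89 and -0.72, the last of which turned positive under quantile normalisation and at the 75th percentile.

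**Figure D4:**
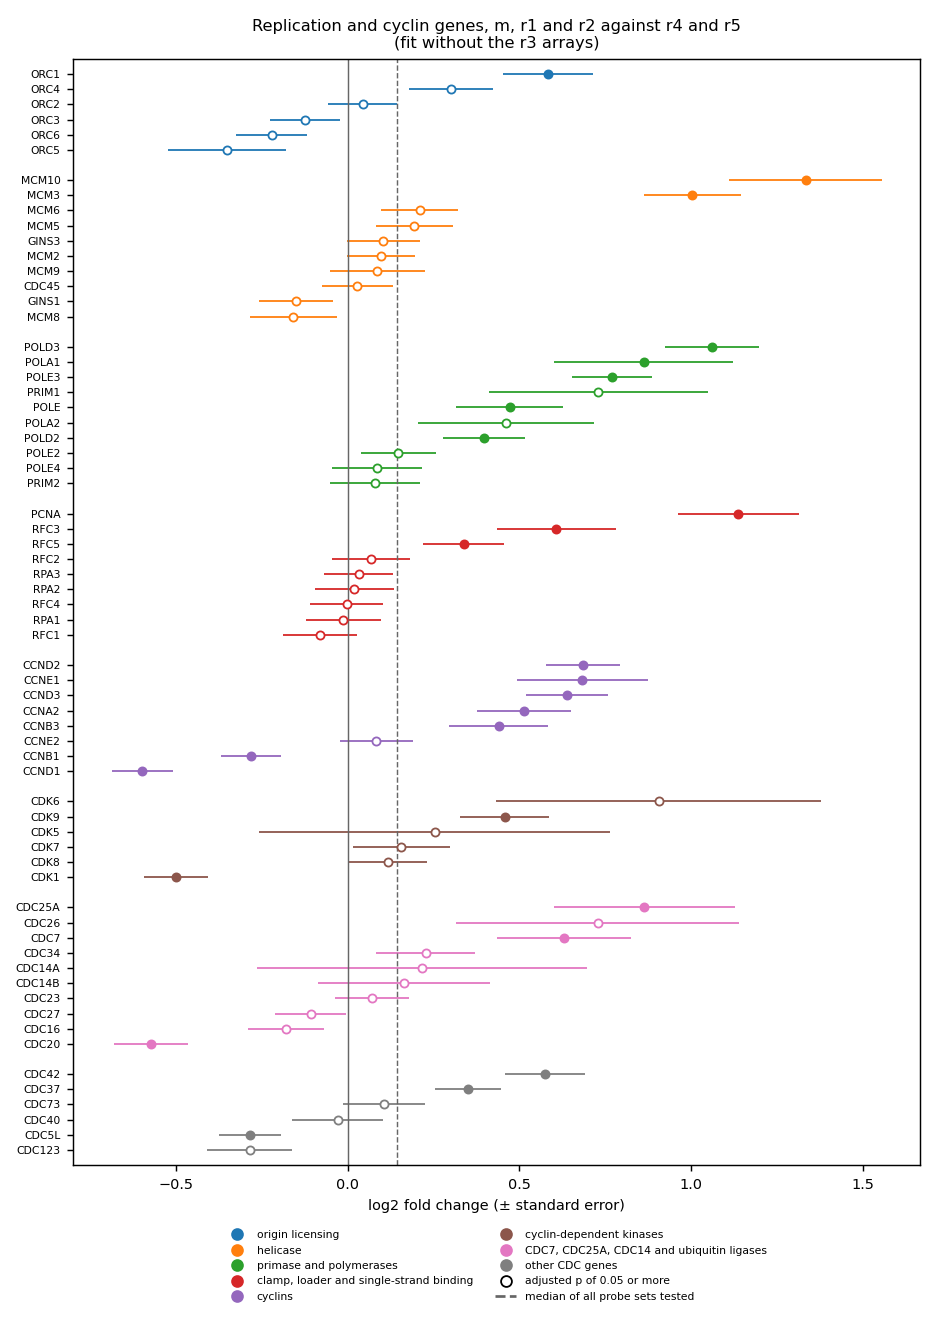
Log2 fold change of m, r1 and r2 against r4 and r5 (x axis, bars show the standard error) for 65 genes in the fit without the r3 arrays, in 8 role groups; filled points have an adjusted p below 0.05 and the dashed line marks the median of all probe sets, 0.14. After median scaling the 21 genes called higher run from 0.34 to 1.33 and the 5 called lower from -0.28 to -0.60, and the 5 turned positive with no scaling. No scaling moved the median of all probe sets up as well.

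Single regions other than r3 gave fewer calls. In m, 11 genes were higher and 0 lower, against 6.33% and 2.16% of all probe sets; they were POLD3, PCNA, CDC25A, CCNE1, MCM3, ORC1, CCNB3, CCND2, POLE3, CCNA2 and CDC42. In r1, POLD3, ORC1, MCM3 and CCND3 were higher and 0 genes lower, against 1.65% and 0.612%. In r2, POLD3 was higher and 0 genes were lower, against 0.29% and 0.106%. In r4, CCND1 was higher and 0 genes were lower, against 0.69% and 0.456%, and in r5, 0 genes were called, against 1.14% higher and 0.566% lower. These contrasts hold r3 in the group compared against. For the counts with 1 array left out, given next, the shares of all probe sets are not given here. Those counts are therefore not a result about the members. With 1 array left out, the count in m ran from 0, without either m array, to 24, without set 2 of r3, and CCND1 was not called in r4 without either r4 array, set 1 of m or set 1 of r2.

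Without the r3 arrays, each region was set against the other 4. In m, CCND2, POLD3, PCNA, MCM3 and CCNB3 were higher and 0 genes lower, against 5.44% and 3.03% of all probe sets, and CCND2 differed most clearly, at 0.73 ± 0.13 (SE, adjusted p = 0.0035). In r1 and r2, 0 genes were called, against 1.1% higher and 0.886% lower in r1 and 0.66% and 0.477% in r2. In r4, CCND1, ORC5, CDK1 and CDC20 were higher and 13 genes lower, against 5.97% and 12% of all probe sets. PCNA was lower in r4 with a log2 fold change of -1.13 ± 0.21 (SE, adjusted p = 0.0031) and MCM10 with a log2 fold change of -1.35 ± 0.27 (SE, adjusted p = 0.0044), while CCND1 was higher with a log2 fold change of 0.77 ± 0.11 (SE, adjusted p = 5.6e-04) and CDK1 with a log2 fold change of 0.55 ± 0.11 (SE, adjusted p = 0.005). In r5, CDC37, POLD3 and MCM3 were lower and 0 genes higher, against 5.11% and 2.76%.

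Different probe sets of 1 gene did not always give the same pattern. Of the 66 genes, 23 had more than 1 probe set above the filter. In r3, all probe sets of 3 of these were lower, none of 5 was, and in 15 some were lower and others not. The same count was not made for all genes with several probe sets, so whether it sets these genes apart is not known. CCND1 is an example of a gene whose probe sets differed. Its second probe set measured 718 and 758 in m, 776 and 884 in r1, 565 and 681 in r2, 216 and 337 in r3, 866 and 972 in r4, and 690.1 and 596 in r5, and gave a log2 fold change of -1.46 in r3 and -0.08 between front and back, where the probe set followed above gave 0.01 and -0.60. The front to back difference of CCND1 and its r3 level therefore rest on 1 of its 2 probe sets. The 2 probe sets of MCM6 gave -1.69 and 0.13 in r3, those of CCNE2 -1.22 and 0.75, those of RFC2 -1.59 and 0.32, those of CDK8 -0.32 and -0.93, those of CDC7 -1.81 and 1.64, those of POLA1 0.34 and -1.96, those of ORC6 -0.09 and -1.57 and those of CDC27 0.03 and -2.29. The 3 of CCND2 ran from -1.57 to 0.08 in r3 and from 0.39 to 1.07 between front and back, and the 2 of CCNE1 gave -1.57 and -1.22 in r3. Where in its transcript a probe set lies was not analysed here.

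**Figure D5:**
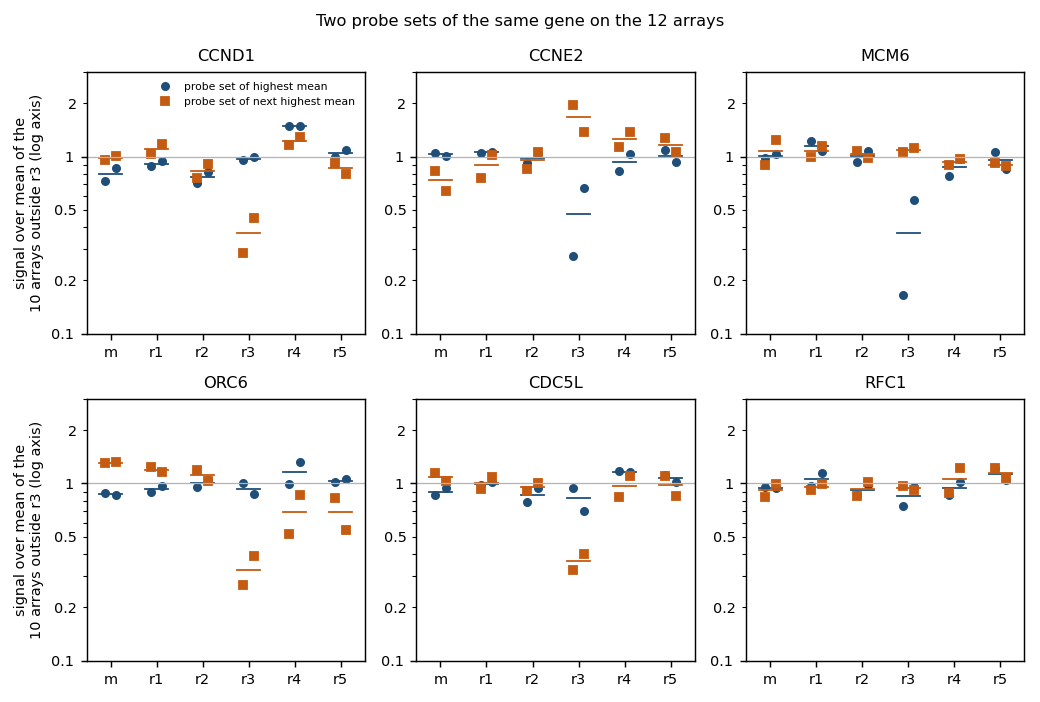
Signal of the 2 probe sets of highest mean signal for 6 genes, each divided by its own mean over the 10 arrays outside r3 (log y axis), by region on the x axis with set 1 left, set 2 right and a bar at the mean of the 2 arrays. In CCND1, ORC6 and CDC5L the second probe set was low in r3 and the first was not, in MCM6 and CCNE2 the first was, and in RFC1 neither was.

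Other genes of the cycle were read from 3 lists, for which scaling other than to the median was not tried; DUT, KIF20A, CDKN1B and MYC are named after their values had been seen. Of all probe sets, 39.7% were lower and 7.12% higher in r3, and without r3 19.9% were higher and 9.59% lower in front. Of 20 genes of S phase and nucleotide supply tested, 12 were lower and 2 higher in r3, and without r3 7 were higher and 3 lower in front. UHRF1, which carries DNA methylation through replication, measured 52.4 and 60.2 in m, 50.2 and 45.0 in r1, 53.6 and 38.1 in r2, 2.57 and 4.74 in r3, 12.2 and 16.6 in r4, and 15.8 and 25.8 in r5, at -3.21 ± 0.32 (SE, adjusted p = 1.6e-05) in r3 and 1.54 ± 0.20 (SE, adjusted p = 1.1e-04) between front and back. LIG1, the ligase that joins Okazaki fragments, was higher in front with a log2 fold change of 1.60 ± 0.28 (SE, adjusted p = 9.0e-04). DUT, which keeps uracil out of DNA, was higher in r3 with a log2 fold change of 0.86 ± 0.15 (SE, adjusted p = 7.8e-04). The list thus held members of both directions in both contrasts.

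Against the same shares of all probe sets, 39.7% and 7.12% in r3 and 19.9% and 9.59% in front, of 25 mitosis genes 16 were lower and 0 higher in r3, and without r3 5 were higher and 7 lower in front. TTK, a spindle checkpoint kinase, was lower in r3 with a log2 fold change of -1.95 ± 0.24 (SE, adjusted p = 6.2e-05) and higher in front with a log2 fold change of 0.99 ± 0.15 (SE, adjusted p = 3.5e-04). KIF20A, a kinesin of cytokinesis, measured 974 and 1019 in m, 976 and 1073 in r1, 966 and 1054 in r2, 1197 and 1513 in r3, 1692 and 1641 in r4, and 1395 and 1403 in r5. Like CDK1, CDC20 and CCNB1 it was lower in front after median scaling, with a log2 fold change of -0.60 ± 0.08 (SE, adjusted p = 1.6e-04). KIF20A was not called in r3. Of 25 genes of cell cycle control, 12 were lower and 2 higher in r3, and without r3 6 higher and 5 lower in front. E2F1, a transcription factor of S phase genes, measured 478 and 598 in m, 529.7 and 499.6 in r1, 516 and 414 in r2, 40.4 and 54.9 in r3, 206 and 368 in r4, and 448 and 417 in r5, at -3.20 ± 0.21 (SE, adjusted p = 1.7e-06) in r3, and RB1, its inhibitor, was lower with a log2 fold change of -2.85 ± 0.34 (SE, adjusted p = 5.3e-05). CDKN1B, the inhibitor p27, was higher in r3 with a log2 fold change of 1.07 ± 0.22 (SE, adjusted p = 0.0016) and lower in front with a log2 fold change of -0.49 ± 0.12 (SE, adjusted p = 0.0091, and 0.096 with r3 in the fit). MYC was lower in front with a log2 fold change of -0.78 ± 0.12 (SE, adjusted p = 2.6e-04, and 0.098 with r3 in the fit), with its highest signals, 315 and 349, in r4.

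Markers of other cells also moved along the axis. The summed signal of the 16 annotated neuronal genes was 2779 to 3564 on the arrays of m, r1 and r2, 4939 and 3808 in r3, 5239 and 6006 in r4 and 4287 and 3832 in r5. Without r3, 3 of 12 neuronal genes tested were higher and 6 lower in front, against 19.9% and 9.59% of all probe sets. The 3 higher were TUBB3, NEUROG2 and DLL1, at 1.30, 1.28 and 1.07. The 6 lower were STMN2, NEFM, NHLH1, NEFL, TUBB2B and DCX, from -3.31 to -0.37. NEUROG2, DLL1, NEFL and DCX were not called with r3 in the fit. In r3, 5 of 13 were lower and 1 higher, against 39.7% and 7.12%: TUBB3, ELAVL4, NEFL, CNTN2 and DCX were lower, at -3.13, -2.26, -1.68, -2.89 and -0.71, and NEFM was higher, at 1.41. Most of the sum came from TUBB2B, which gave 1964 to 2598 in m, r1 and r2. It gave 3527 and 2724 in r3, 2997 and 3339 in r4 and 2946 and 2441 in r5. NEFM gave 27.4 to 527 in m, r1 and r2, 1026 and 558 in r3, 1192 and 1275 in r4 and 551 and 627 in r5. STMN2, a gene of young neurons, stayed at or below 13.2 in m, r1 and r2 and reached 85.1 and 132 in r4, while NEUROD1, NEUROD4 and GAP43 did not pass the filter in any region. The summed signal of the 7 neural crest genes was 386 to 957 in m, r1 and r2, 308 and 270 in r3, 1684 and 2016 in r4 and 884 and 783 in r5, and SOX10 reached 664 and 856 in r4. In r3, 6 of the 7 were lower and 0 higher. Of 7 progenitor genes, VIM, NES and NOTCH1 were higher in r3, at 0.91, 0.47 and 0.72, and SOX3, HES5 and MSI1 lower, at -1.11, -1.83 and -2.83. Of 6 mesoderm and notochord genes tested, TWIST1 and FOXC2 were higher in r3, at 2.91 and 2.52, with signals of at most 127, and TBXT and TCF15 lower, at -3.18 and -0.76. The summed signal of the 8 annotated genes of this list was 204 and 149.97 in r3 and 81.9 to 152 elsewhere. The summed signal of the 4 annotated surface ectoderm and otic genes was 780.2 and 671 in r3 and 552 to 1010.1 elsewhere. Of the 3 tested, DLX5 was higher in r3, at 1.12, EPCAM lower, at -0.98, and TP63 not called, at -0.07. For the 7 blood and endothelial genes the sum was 103 and 115 in r3 and 27.7 to 168 elsewhere. Of these, 6 were tested, and CDH5 alone was called in r3, higher at 1.00. The part of these cells in the differences of the replication and cyclin genes was not tested.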

How the data were processed

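Tissue of 6 regions was measured on 12 arrays, 2 pools a region. The authors amplified total RNA, hybridised it to Affymetrix Chicken GeneChips and reduced each probe set to 1 deposited intensity with MAS5, per the labels; presence calls were not used here. The labels give stage HH10 and 15 min of Dispase at 1 mg per ml, and the methods text gives a later stage and a shorter time.

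The deposited intensities of 38439 probe sets (96 control probe sets left out) were divided by the array median, multiplied by 5.90, floored at 1.03 and taken to log2. Of these, 27168 had 1 gene symbol in the platform annotation, 177 several and 11094 none; RefSeq holds all 68 symbols, 67 of them under the same Entrez number. Regions were compared with limma 3.58.1 in R 4.3.3 (lmFit, eBayes with trend, 6 residual degrees of freedom), two-sided, on the 21731 probe sets above the array median on both arrays of a region, with Benjamini-Hochberg adjustment over them. A limma fit without the r3 arrays used 20760. The code was tested on simulated data. Figures were drawn with matplotlib 3.10.9.

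The members and the lists were chosen with earlier results of these data known. Signal on every array is given for PCNA, the MCM ring, the cyclins and the members with the smallest F test p. The alternatives changed the scaling, the floor, the filter, the test, the probe sets and the arrays. The number of arrays, 2 a region, limits the precision, and p-values measure only the spread between pools.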

Additional observations from a re-analysis of the deposited data

How the results depend on the processing

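Where 44 genes were called in r3, the count was 40 to 46 when 1 array was left out and 0 when the control ratio entered the fit. The control ratio as a covariate gave 1 called gene in the F test over all regions and 0 for each of m, r1, r2 and r4, 0 between front and back, and 0 and 0 for the F test and the front to back contrast without r3. It turned the r3 value of CCND2 to 0.64, CCNE2 to 0.15, CDC123 to 0.57, CDC16 to 0.62, CDC42 to 0.37, CDC45 to 0.019, CDC73 to 0.68, CDK9 to 0.35, MCM6 to 0.29, POLA2 to 0.64 and PRIM1 to 4.03. It also turned the front to back value of CCND2 to -0.013, CDC42 to -0.18 and PCNA to -0.083, and CDC42 in m to -0.20. The mean log2 ratio was 7.12 and 6.12 on the r3 arrays and at most 4.05 on the others. This fit therefore cannot tell r3 and the ratio apart, and it called 0 of all 21731 probe sets in r3. The front arrays and those of r4 and r5 did not overlap in the ratio either, although the nearest arrays lay at 2.07 and 2.08. The turned front to back values therefore decide nothing. Leaving out both r3 arrays gave 13 in the F test, 5 in m, 0 in both r1 and r2, 17 in r4, 3 in r5 and 26 between front and back. Quantile normalisation gave 2 in r2 and 1 in r5, turned the r3 value of CDC123 to 0.14, CDC23 to 0.065, CDC34 to 0.22 and POLE4 to 0.023, and without r3 gave 20 in the F test and turned CCNB1 between front and back to 0.011. No scaling gave 5 in m, 4 in r2, 0 in both r1 and r4, and 31 between front and back, all 31 higher, and without r3 32 and 54. It turned the front to back values of CCND1 to 0.13, CDC20 to 0.15 and CDK1 to 0.23, and without r3 also CCNB1 to 0.44 and CDC5L to 0.44. Without r3, no scaling also moved the front to back median of all probe sets up. The 75th percentile gave 22 in the F test, 2 in r1, 0 in r2 and 3 in r4, with 6 higher and 11 lower between front and back, and 21 in the F test without r3. It turned the r3 value of CDC123 to 0.069, CDC20 to 0.17, CDC23 to 0.21 and CDC34 to 0.11.

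No floor gave 0 in r2, and the mean of the probe sets of a gene also gave 0. No filter gave 5 in m and 2 in r1. A floor at 20 gave 7 in the F test and 15 between front and back without r3. limma without the trend gave 3 in m, 1 in r1, 0 in r4 and 5 between front and back, and 2 and 13 for the F test and the front to back contrast without r3. A plain 1-way analysis of variance, the test the methods name, gave 22 in the F test, 3 in m, 1 in r1, 0 in r2 and 7 between front and back. Array weights gave 29 in m, 25 in r1, 9 in r2, 1 in r5 and 22 between front and back. Leaving out 1 array gave 32 to 46 in the F test, 0 to 24 in m, 0 to 25 in r1, 0 to 10 for r2, 0 to 7 for r4, 0 to 2 in r5 and 3 to 25 between front and back, the highest of these without an r3 array. In the fit without r3 it gave 9 to 18 in the F test, lowest without set 1 of m, and 14 to 29 between front and back, lowest without set 2 of r5. A region left with 1 array was assumed to vary like the others. The counts in this section are of members. Apart from r3 with the ratio as a covariate, no share of all probe sets stands beside them. A change in a count is therefore not a result about the members. The causes of these changes were not tested.

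The set number as a replicate block gave 38 genes in the F test, 10 in m, 44 in r3 and 12 between front and back, and 14 and 26 without r3, and moved no count by over 1.5 times. The sets of the same number did not deviate together, with correlations between -0.04 and 0.07 and 0 of 15 pairs of regions above 0.1. These correlations cannot show whether the regions of a set shared embryos or a collection occasion, which was not tested.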
